A study of Mus musculus with 32 samples.

Results

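The cytosolic ribosomal protein genes are the nuclear genes for the proteins of the large (60S, Rpl and Rplp symbols) and small (40S, Rps symbols and Rpsa) subunits of the cytoplasmic ribosome. They were taken from the expression tables by symbol, without the symbols that hold -ps (processed pseudogenes) and without the Rps6k kinases, and 84 of 24028 symbols matched. Of these, 51 belong to the large and 33 to the small subunit, and 7 are paralogs with an l after their number, such as Rpl39l. No expression value was used to choose them.

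The study asked how the Polycomb complex, of which EED is a core subunit, keeps broad promoter regions free of DNA methylation. RNA-seq was made from wild type (WT) and Eed -/- mouse embryonic stem cells (mESCs), both labelled TT2, grown with serum and leukemia inhibiting factor on gelatinized plates, with 1 library per genotype. Whether the Eed -/- line is 1 clone is not given in the sources used here, and Eed -/- samples of other assays in the series carry another line name. With 1 library per genotype no test was possible, so no p-value is given, and genotype cannot be told apart from line, culture or library.

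A ribosome holds a single copy of nearly all of its proteins, and their genes are among the most active of a growing cell. Their mRNAs carry a terminal oligopyrimidine (TOP) tract at the 5' end, through which mTOR signalling controls their translation. In mammals many of these mRNAs have been copied back into the genome as intronless processed pseudogenes, so that a read from the mRNA can match several places in the genome.

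Levels are FPKM, fragment counts divided by transcript length and by mapped reads. Eed RNA itself was listed at 63.0 FPKM in WT against 70.9 in the other library, so the RNA level does not check that label. The paper reports that the loss of Eed was checked through H3K27me3, by western blots and by ChIP-seq. Depth, read from the steps of low FPKM values, was about 7120000 fragments in WT against 6380000 in the other library. The 12 pluripotent cell markers summed to 1684 and 1854 FPKM with none at 0, and the 9 feeder fibroblast markers to 2.96 and 10.3 FPKM with 3 at 0 in each library. The feeder markers did not move together. Thy1 (0.976 and 6.97 FPKM) and Twist1 (1.24 and 2.88 FPKM) were higher in the library labelled Eed-/-, and Lum and Prrx1 were above 0 only there. Col1a1 (0.460 and 0.137 FPKM), Col1a2, Col3a1 and Postn were lower there, and Dcn was at 0 in both.

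The sequence feature that sorted these genes best by level was how much of the coding sequence occurs nowhere else in the genome, so it is shown first. The first 50 coding bases of 5 genes are given from the NCBIM37 assembly (the same as mm9), with the start codon in capitals. Rpl8 stands for the highest levels, Rpl10, Rps12 and Rpl21 for low levels, and Rpl29 for the largest difference between the libraries.
Rpl8: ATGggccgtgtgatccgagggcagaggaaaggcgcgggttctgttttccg
Rpl10: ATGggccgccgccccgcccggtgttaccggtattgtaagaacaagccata
Rps12: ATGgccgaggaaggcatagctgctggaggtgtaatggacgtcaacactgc
Rpl21: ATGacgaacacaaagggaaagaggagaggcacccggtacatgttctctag
Rpl29: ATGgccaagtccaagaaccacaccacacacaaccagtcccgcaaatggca

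The Rpl8 stretch (gene at chr15:76734501-76736748, plus strand) had 0 exact matches outside its gene. The Rpl10 stretch (chrX:71516151-71518474, plus strand) had 4, and the Rps12 stretch (chr10:23504990-23507015, minus strand) had 7. The Rpl21 stretch (chr5:147644466-147648608, plus strand) and the Rpl29 stretch (chr9:106331785-106333899, plus strand) had 18 each. Rpl8, above 1000 FPKM in both libraries, thus had a unique start of the coding sequence, and the other 4 genes did not. These 5 starts are examples, and other genes went the other way. Rpl32, at 831 and 1034 FPKM, had 4 exact matches for its start, and Rplp0, at 755 and 687 FPKM, had 3. Rpl3l, at 0.480 and 0.130 FPKM, had 0.

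Ribosomal protein genes ranged widely in level. In WT their levels ran from 0 to 2170 FPKM with a median of 40.2 (quartiles 8.10 and 185), and in the library labelled Eed-/- from 0 to 1732 FPKM with a median of 42.2 (quartiles 7.86 and 169). The median of protein-coding symbols was 1.09 and 1.05 FPKM. All 84 genes summed to 17718 FPKM in WT against 16385 in the other library, which was 5.90% and 6.29% of the FPKM of protein-coding symbols.

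A few genes held most of that sum. The 10 highest genes took 62.1% of it in WT against 63.2% in the other library, whereas 25 and 23 genes were under 10 FPKM. Over the 84 genes, log2(FPKM + 1) in the libraries correlated with Pearson's r = 0.94 and Spearman's rho = 0.94, a description across genes that share both libraries. The order of the levels was therefore much alike in both.

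Among the highest genes, the large subunit protein Rpl8, which lies near the peptidyl transferase centre, was listed at 2170 FPKM in WT against 1732 in the other library. The acidic stalk protein Rplp1, which helps to recruit elongation factors, was at 1543 and 1661 FPKM. The very short Rpl41 was at 1263 and 1250 FPKM. All 3 were above 1000 FPKM in both libraries, and their order was the same in each.

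Also among the 10 highest were Rps9 at 987 and 680 FPKM, Rpl32 at 831 and 1034 FPKM and Rpl4 at 810 and 717 FPKM. The stalk base protein Rplp0, a common reference gene in RT-PCR, was at 755 and 687 FPKM. The small subunit gene Rps20 was at 649 and 725 FPKM. Among these 5, Rpl32 and Rps20 had the higher value in the library labelled Eed-/- and the other 3 the lower value, on deposited FPKM.

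At the other end stood genes whose products every ribosome needs. Rps28 was listed at 0 in both libraries, Rpl10, which joins the large subunit late in its assembly, at 0.668 and 0.754 FPKM, and Rpl10a at 1.05 and 1.43 FPKM. Rpl11, which binds MDM2 when ribosome assembly is disturbed, was at 1.64 and 0.372 FPKM, and its partner Rpl5 at 4.00 and 10.9 FPKM. Rps6, the target of S6 kinase, was at 11.9 and 12.0 FPKM. A value of 0 for a gene that every cell uses can be a failed estimate, so Rps28 is only said to be listed at 0.

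**Figure D1:**
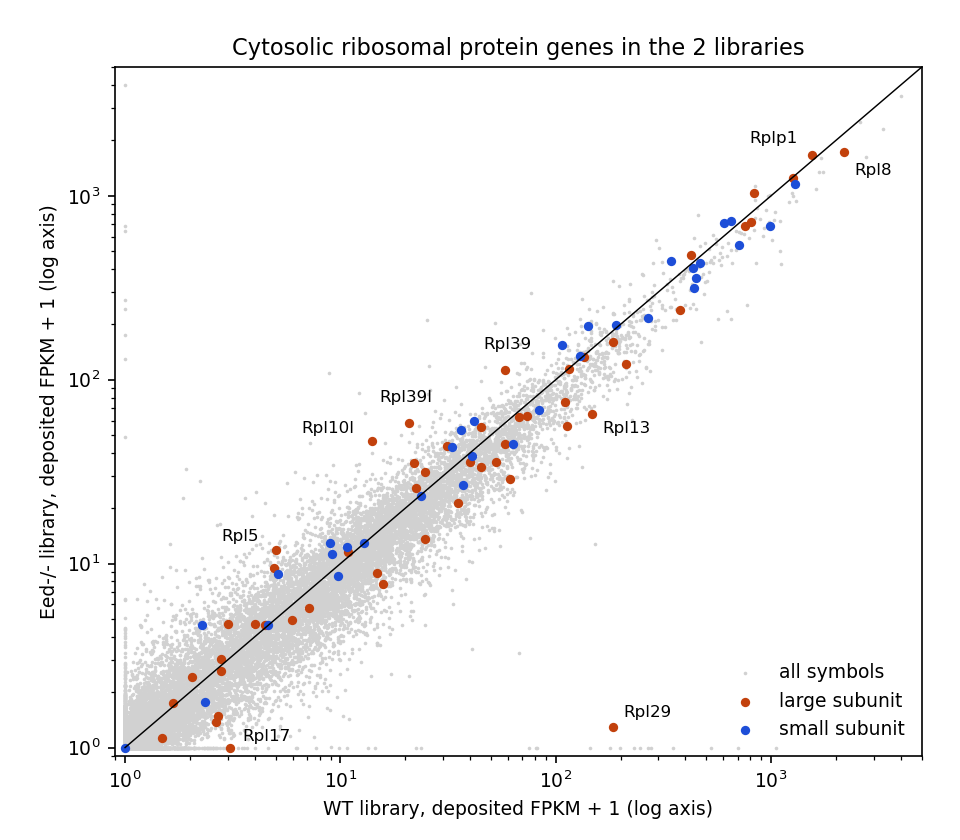
Deposited FPKM + 1 of each symbol in the WT library (x axis) and the library labelled Eed-/- (y axis), both log axes, with large subunit genes in orange, small subunit genes in blue, all symbols in grey and the line of equal values; symbols above the axis limits are not drawn. The ribosomal protein genes run from 0 FPKM up to Rpl8 at 2170 and 1732 FPKM, and Rpl29 lies far below the line.

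The coding sequences of these genes were far less unique than those of other genes. Of 83 genes with an annotated coding transcript (Rpl41 had none here), 29 (34.9%) had no 50-base coding window that is absent from the rest of the genome, against 172 of 19996 other coding genes (0.860%). The median share of unique windows was 10.4% for the ribosomal protein genes and 100% for the other genes. For 77 of the 83 genes at least 1 near-identical copy of the coding sequence lay elsewhere in the genome (at least 95% identity over at least 80% of its length). The median number of copies was 5, and Rpl21 had the most with 62.

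Levels were ordered by that share. The 29 genes with no unique window had a median of 3.94 FPKM in WT against 4.71 in the other library, and the highest of them, Rpl13, was at 146 and 64.1 FPKM. The 28 genes with some but under 20% had medians of 47.9 and 36.2 FPKM, the 10 genes with 20 to under 50% medians of 405 and 276 FPKM, and the 16 genes with 50% or more medians of 428 and 414 FPKM. Of these 16, 12 were at 100 FPKM or more in each library, against 1 and 0 of the 29. Within the large subunit the order broke at the top. Its 7 genes with 20 to under 50% had medians of 375 and 239 FPKM, and its 8 genes with 50% or more medians of 124 and 111 FPKM. In the small subunit these medians were 435 and 312 FPKM (3 genes) and 456 and 434 FPKM (8 genes).

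Across the 83 genes, Spearman's rho between FPKM and the share of unique windows was 0.71 in each library, and Pearson's r with log2(FPKM + 1) was 0.54 in WT against 0.56 in the other library. These are descriptions across genes that share both libraries and one annotation. The share of unique 50-base windows over the whole transcript, untranslated parts included, ordered the levels less well (rho of 0.44 and 0.48). So did the number of near-identical copies (-0.33 and -0.40), and transcript length hardly ordered them at all (0.04 and 0.06). How the reads with several matches were counted is not given in the sources used here, and the part of such reads in the low levels was not tested.

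The exceptions with a unique coding sequence and a low level were paralogs. Rpl3l, known as the muscle form of Rpl3, had 100% unique windows and 0.480 and 0.130 FPKM. Rpl39l and Rpl10l, known for their expression in male germ cells, had 100% and 87.6% unique windows at 19.7 and 13.0 FPKM in WT. In the other direction, 8 of the 28 genes with some but under 20% unique windows were at 100 FPKM or more in WT, against 6 in the other library. The highest of them was Rps20, with 14.8% unique windows and 649 and 725 FPKM.

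**Figure D2:**
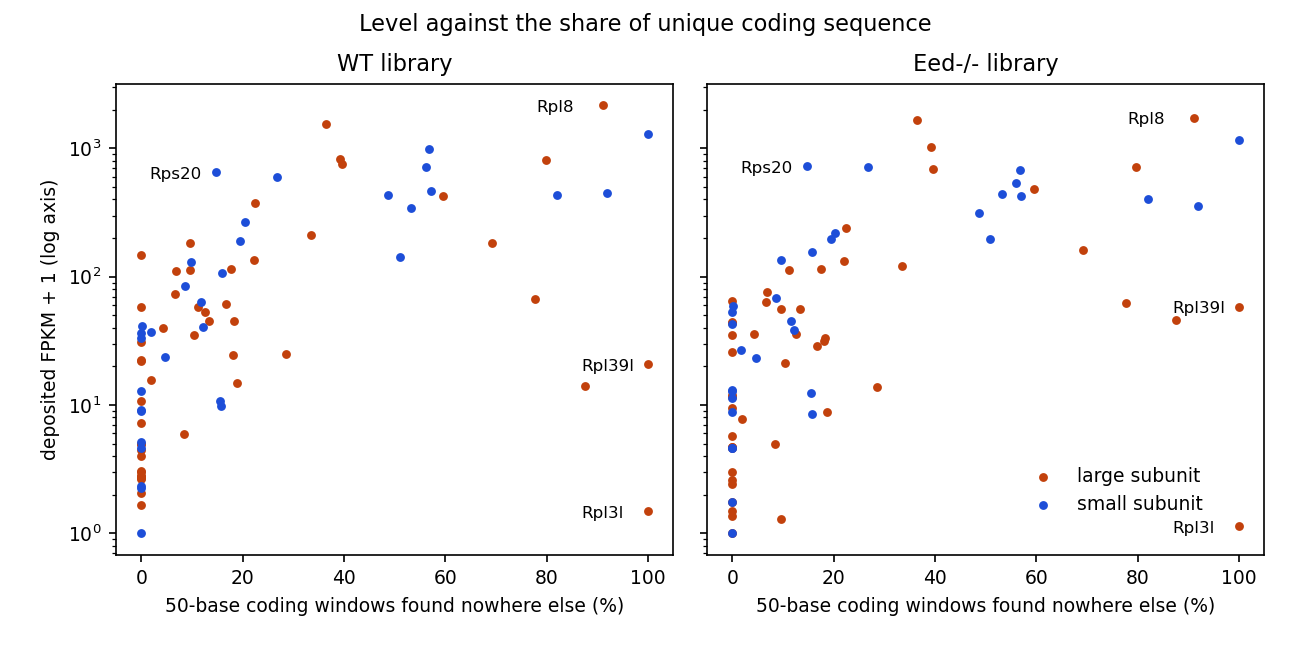
Deposited FPKM + 1 (log axis) of 83 ribosomal protein genes against the percent of their 50-base coding windows with no exact match elsewhere in the genome, in the WT library (left) and the library labelled Eed-/- (right), with large subunit genes in orange and small subunit genes in blue. The 29 genes at 0% sit mostly under 60 FPKM, and the genes above 20% mostly over 100 FPKM apart from paralogs such as Rpl3l and Rpl39l.

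Differences between the libraries were computed as log2(FPKM + 1) in the library labelled Eed-/- minus WT after quantile normalization, over genes whose normalized FPKM averaged at least 0.1. That filter kept 83 of the 84 genes and left out Rps28. The median difference was 0.10 (quartiles -0.25 and 0.46), against 0.01 over all 14835 genes (quartiles -0.31 and 0.32). Of the ribosomal protein genes 50 were higher and 31 lower, and of all genes 7558 were higher and 7263 lower. On FPKM as deposited the median of the ribosomal protein genes was -0.08 and that of all genes -0.09, so the sign rests on the scaling and the list lay close to all genes on both scales.

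Of the 83 genes, 6 were at least 2-fold above WT in the library labelled Eed-/-, against 3.8% of all genes tested, and 2 were at least 2-fold below WT, against 3.98%. At 1.5-fold the counts were 17 higher and 10 lower, against 12.3% and 12.4% of all genes. On FPKM as deposited 4 were at least 2-fold higher and 6 lower, against 3.07% and 5.4% of all genes, and at 1.5-fold 9 were higher and 13 lower, against 9.18% and 16.4%. The 28 genes with a mean of at least 100 normalized FPKM lay closer together after quantile normalization, between -0.95 and 0.79. Their median was 0.10, with no gene past 2-fold on that scale. Rpl13, the lowest of them, was past it on deposited FPKM (-1.18) and with median-ratio scaling (-1.02). After quantile normalization, the 530 other genes at such levels had a median of -0.01, with 27 at least 2-fold higher and 31 at least 2-fold lower. The mean behind this class uses both libraries, so a strong fall can take a gene out of it. Rpl29, with a difference of -7.04, was at 184 FPKM in WT but averaged 84.9 normalized FPKM.

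Counting error sets a limit on the low genes. From approximate fragment numbers, the standard error of the log2 ratio due to counting alone had a median of 0.17 over 81 genes, from 0.02 for Rpl8 to 1.74 for Rpl3l. For 44 of the 81 genes the ratio was more than 2 such errors from equality. It belongs to the ratio without a pseudocount, which for low genes lies farther from equality than the difference printed beside it. This error leaves out the spread between cultures and any error in assigning reads, neither of which can be had from these libraries.

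The highest difference belonged to Rpl10l, an intronless autosomal relative of the X-linked Rpl10, at 13.0 FPKM in WT against 45.3 in the other library, a difference of 1.92 (counting error 0.19). Rpl39l, a relative of the X-linked Rpl39, followed at 19.7 and 57.3 FPKM, a difference of 1.69 (0.20). Over all genes tested, 82 had a difference at or above that of Rpl10l and 119 at or above that of Rpl39l. Both genes were higher by more than counting error in the library labelled Eed-/-.

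The other 4 genes at least 2-fold higher were members with little unique coding sequence. Rpl5, which carries 5S ribosomal RNA, was at 4.00 and 10.9 FPKM (1.37, counting error 0.27), and Rpl39, at the peptide exit tunnel, at 56.8 and 112 FPKM (1.22, counting error 0.15). Rps29 was at 1.27 and 3.65 FPKM (1.10, counting error 1.11) and Rpl36a at 3.94 and 8.47 FPKM (1.05, counting error 0.52). Rps29 rested on about 2.40 fragments in WT against 5.72 in the other library, its ratio between 1 and 2 counting errors from equality.

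Below 2-fold, the small subunit gene Rps2 was at 106 and 154 FPKM (0.79, counting error 0.08) and Rpsa, also known as the laminin receptor, at 40.7 and 58.6 FPKM (0.72, counting error 0.09). Rps27a, which is made as a fusion with ubiquitin, was at 35.2 and 52.0 FPKM (0.76, counting error 0.17), and Rpl27a at 21.0 and 34.4 FPKM (0.86, counting error 0.17). Rps27 was at 4.13 and 7.80 FPKM (0.89, counting error 0.80). Except for Rps27, the normalized ratios were at least 4 counting errors from equality.

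The lowest difference was that of Rpl29, a basic protein at the surface of the large subunit that also binds heparin. It was at 184 FPKM in WT against 0.291 in the other library, a difference of -7.04 (counting error 1.44), or about 734 fragments against 1.01. Over all genes tested, 20 had a difference at or below it. Rpl29 had 38 near-identical copies in the genome and 9.68% unique coding windows, and the part of these copies in the difference was not tested. The listed symbol Gm8580, which sits on one of them at 96.97% identity, was at 0 in both libraries.

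After normalization Rpl17 was the other gene at least 2-fold lower, at 2.07 FPKM in WT against 0 in the other library (-1.58), with about 9.07 fragments in WT. On FPKM as deposited Rpl13, Rpl18, Rpl30 and Rpl36 were past 2-fold as well. Rpl13 was at 146 and 64.1 FPKM (-0.95, counting error 0.10), Rpl18 at 112 and 54.7 FPKM (-0.77, counting error 0.11), and Rpl30 at 60.3 and 27.7 FPKM (-0.89, counting error 0.21). Rpl36, Rpl34 and Rpl37 were at 14.8, 23.8 and 13.8 FPKM in WT and 6.76, 12.7 and 7.87 in the other library. Rpl11 and Rpl28, at 1.64 and 1.71 FPKM in WT, had ratios between 1 and 2 counting errors from equality. With Rpl29, the genes Rpl13, Rpl18 and Rpl30 had the most fragments behind them among these 10 lower genes.

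**Figure D3:**
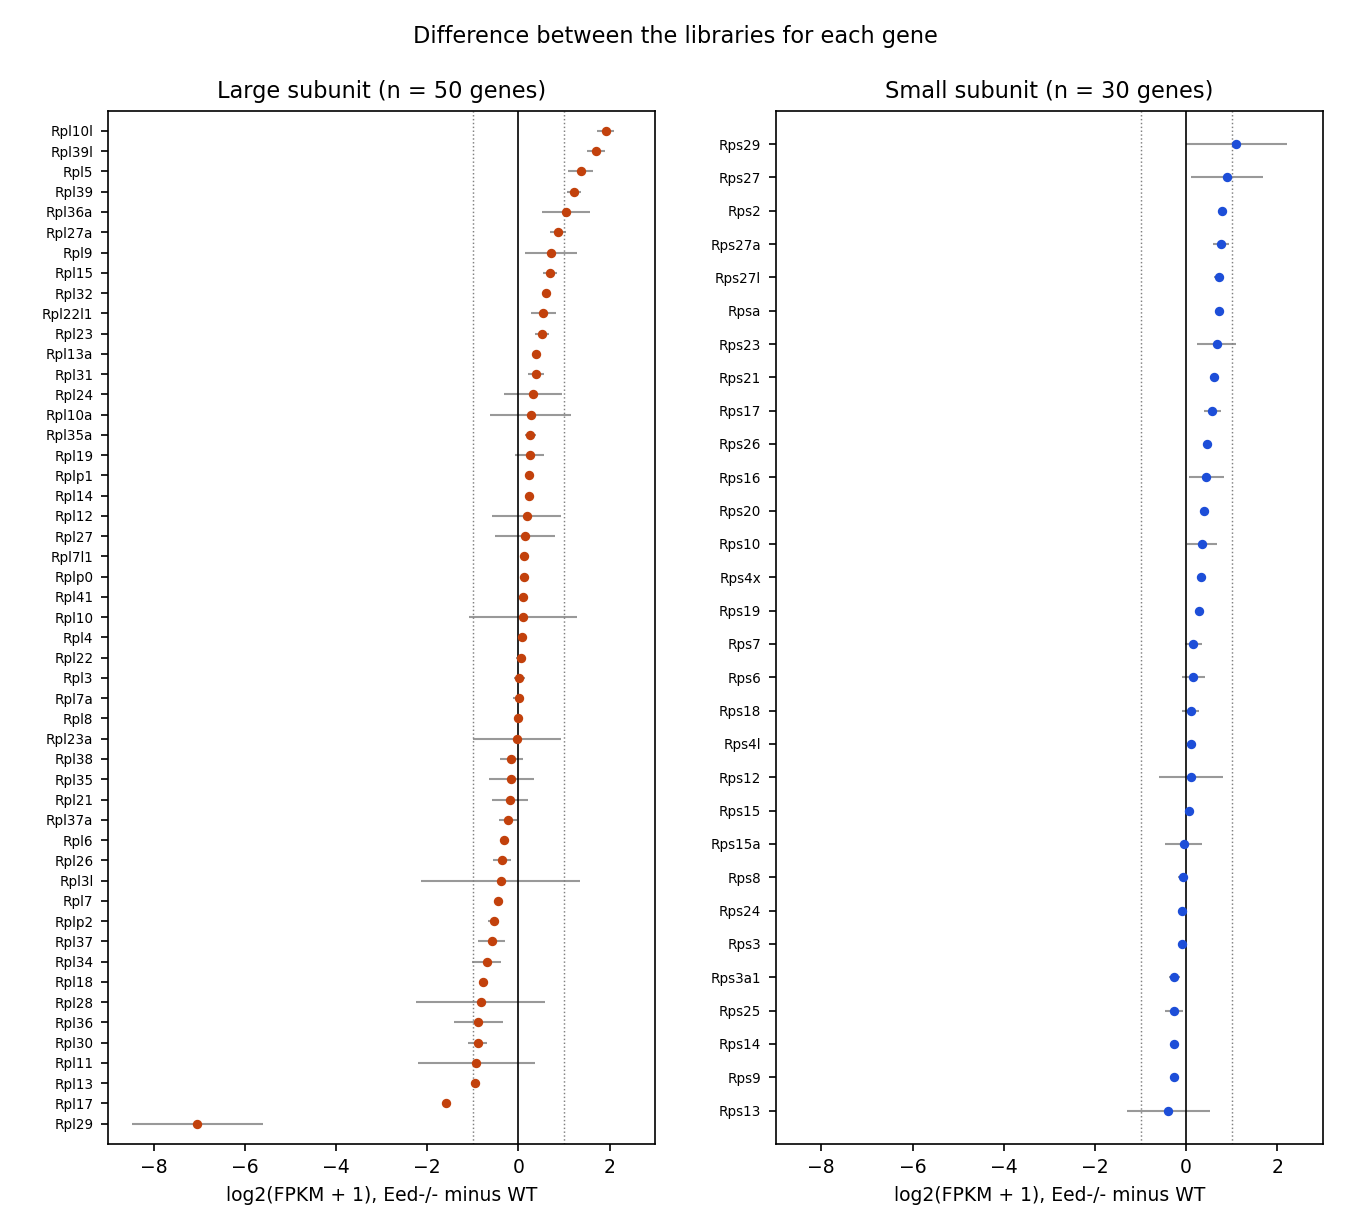
Difference in log2(FPKM + 1), the library labelled Eed-/- minus WT after quantile normalization (x axis), for large subunit genes (left, n = 50) and small subunit genes (right, n = 30), without 3 genes that are not reported here; bars are 1 counting standard error of the log2 ratio without a pseudocount, where both values are above 0 and a transcript is annotated, and dotted lines mark 2-fold. Large subunit genes run from Rpl29 at -7.04 to Rpl10l at 1.92, and small subunit genes from Rps13 at -0.39 to Rps29 at 1.10.

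The large and small subunits differed at their lower end more than in their medians. The 51 large subunit genes had a median difference of 0.09 (quartiles -0.42 and 0.35) and the 32 small subunit genes of 0.16 (quartiles -0.08 and 0.58), so the medians differed by -0.07. That difference was -0.15 on deposited FPKM, -0.13 and -0.14 under both median-ratio scalings and -0.12 without the paralogs. All 10 genes at least 1.5-fold lower were of the large subunit, 19.6% of its genes, against 12.4% of all genes. None of the 32 small subunit genes was. At least 1.5-fold higher were 9 large and 8 small subunit genes, 17.6% and 25% of each, against the 12.3% of all genes. On deposited FPKM 7 large and 2 small subunit genes were 1.5-fold higher (13.7% and 6.25%, against 9.18% of all genes). On the same scale 13 large and 0 small ones were lower (25.5% of the large subunit, against 16.4% of all genes). The counts of higher genes thus depend on the scaling, and the difference between the subunits was not tested, since genes are not replicates.

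Summed levels of both subunits were close to each other in the libraries. Large subunit genes summed to 10120 FPKM in WT against 9322 in the other library, and small subunit genes to 7598 and 7064. As a share of the FPKM of protein-coding symbols these were 3.37% and 3.58% for the large and 2.53% and 2.71% for the small subunit. The median level was 34.3 and 34.4 FPKM for large subunit genes and 62.3 and 58.6 FPKM for small subunit genes.

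The subunits were also compared among genes with more unique sequence. Among genes with at least 20% unique coding windows, the 15 of the large subunit had a median difference of 0.13 and 1 gene at least 1.5-fold lower, Rpl34, and the 11 of the small subunit a median of 0.00 and no such gene. The sign of the difference between the subunits was thereby turned from -0.07 to 0.13. Of the 10 lower genes, 9 had under 20% unique windows, as did 35 of the 50 large subunit genes with a coding transcript.

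The 7 paralogs had a median difference of 0.55, against 0.10 over the other 76 genes tested, with 6 higher and 1 lower. On deposited FPKM their median was 0.36, with 4 higher and 3 lower. The sequences of Rpl10l and Rpl39l beside their namesakes show how reads of the pairs can be told apart: over the first 50 coding bases, on NCBIM37, capitals mark the bases that differ within a pair.
Rpl10l: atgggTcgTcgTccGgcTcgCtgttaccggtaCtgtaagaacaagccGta
Rpl10: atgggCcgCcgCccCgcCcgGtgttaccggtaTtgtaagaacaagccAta
Rpl39l: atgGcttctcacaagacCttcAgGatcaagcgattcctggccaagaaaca
Rpl39: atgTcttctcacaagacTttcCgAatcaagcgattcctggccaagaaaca

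Over the whole coding sequence Rpl10l differed from Rpl10 at 98 of 645 bases (84.8% identity) and Rpl39l from Rpl39 at 23 of 156 bases (85.3% identity). Rpl10l held 95.1% of the FPKM of its pair in WT against 98.4% in the other library, because Rpl10 was listed at 0.668 and 0.754 FPKM. Rpl39l held 25.8% and 33.8% of its pair, with Rpl39 at 56.8 and 112 FPKM. Rpl10 had no unique coding window and 9 near-identical copies, so its share of the pair is uncertain.

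Rps27l, a p53 target that shares 76.1% of its coding bases with Rps27, was at 141 and 196 FPKM (0.72, counting error 0.11) against 4.13 and 7.80 for Rps27. Rps4l, annotated in RefSeq as a transcribed pseudogene, was at 434 and 401 FPKM (0.10) against 128 and 134 for the X-linked Rps4x. Rpl7l1 was at 66.2 and 61.9 FPKM (0.13) and Rpl22l1 at 23.6 and 30.6 FPKM (0.55). Rpl22, whose protein regulates Rpl22l1 mRNA, was at 183 and 160 FPKM (0.05), and Rpl3l was at 0.480 and 0.130 FPKM (-0.39). Of the paralogs, Rpl3l was lower on both scales, and Rps4l and Rpl7l1 were lower on deposited FPKM only.

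**Figure D4:**
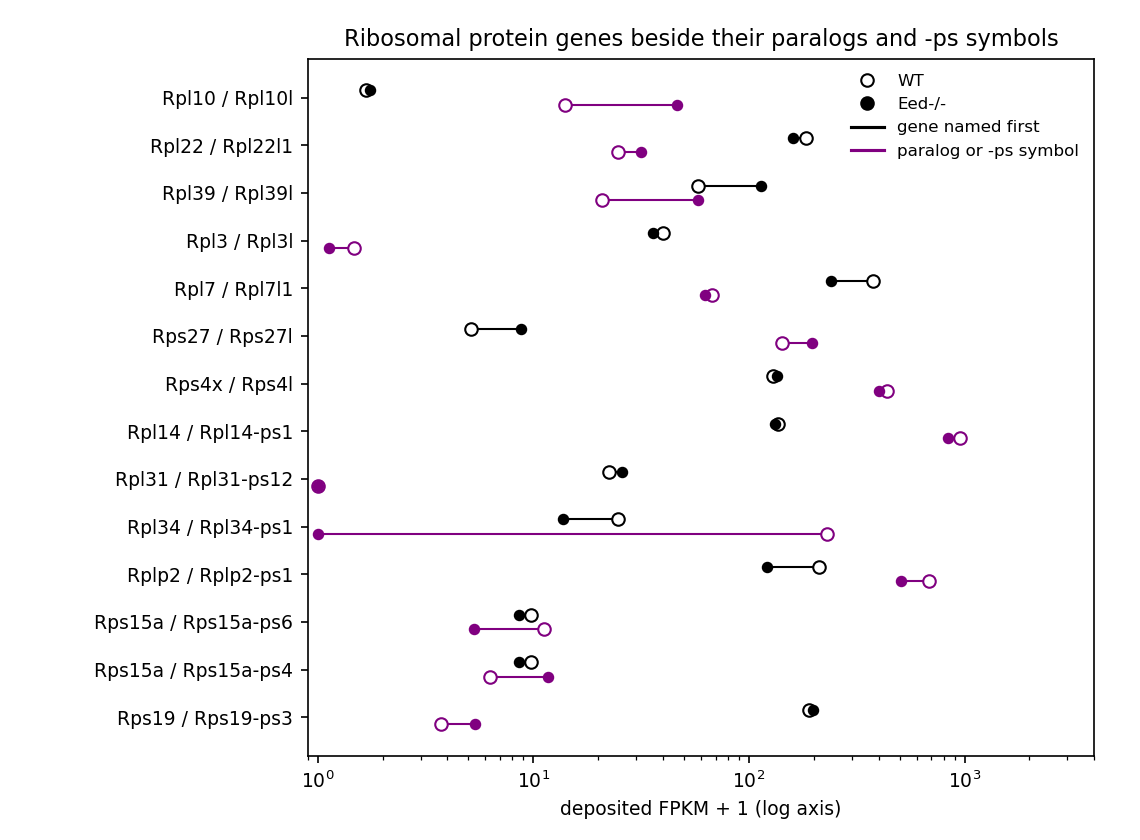
Deposited FPKM + 1 (log axis) of ribosomal protein genes (black) and of a paralog or -ps symbol of the same name (purple), with WT as open and the library labelled Eed-/- as filled circles. Rpl10l and Rpl39l are higher in the library labelled Eed-/-, and the -ps symbols of Rpl14 and Rplp2 lie above the genes they are named after.

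Some processed pseudogene symbols were listed at high FPKM beside the genes they are named after. Whether the reads behind these values came from the gene or from the copy was not tested. Rpl14-ps1, on a copy of Rpl14 at 99.2% identity, was at 947 and 837 FPKM, against 135 and 132 for Rpl14. Rplp2-ps1 was at 683 and 508 FPKM, against 211 and 121 for Rplp2. Each pair summed to 1082 and 968 FPKM for Rpl14 and 894 and 628 FPKM for Rplp2. The copy was thus listed above the gene with introns in both pairs and both libraries.

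Rpl34-ps1 was at 230 FPKM in WT against 2.19e-08 in the other library, and Rpl34 at 23.8 and 12.7, so that their sum was 254 and 12.7 FPKM. Gm15772, on a copy of Rpl26 at 99.5% identity, was at 21.3 and 4.48e-05 FPKM, and Rpl26 at 51.8 and 34.8. Gm15421, on a copy of Rpl22l1 at 99.5% identity, was at 23.3 and 29.7 FPKM, close to the 23.6 and 30.6 of Rpl22l1. Rps19-ps3, Rps15a-ps4 and Rps15a-ps6 were between 2.73 and 10.7 FPKM in both libraries, and Rpl31-ps12 was listed at 0. Values under 0.001 FPKM stand for far less than 1 fragment at these depths.

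Most ribosomal protein genes on chromosomes 1, 8 and X differed in the direction of the median of the other genes there. Over other genes, the median difference was -0.29 on chromosome 1 (791 genes), -0.39 on chromosome 8 (750 genes), 0.46 on chromosome X (531 genes) and 0.02 on all others (12096 genes). On chromosome 8, Rpl13 was at -0.95. On chromosome X, Rpl39, Rpl36a, Rps4x and Rpl10 had a median of 0.69 and all 4 were higher, as were 436 of the 531 other genes. Rpl10, at 0.10, rested on about 3.04 fragments in WT against 2.98 in the other library (counting error 1.18).

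The 3 genes of chromosome 1 had a median of -0.23. Rpl7 was at 375 and 239 FPKM (-0.45), Rpl37a at 44.0 and 32.5 FPKM (-0.23) and Rpl31 at 21.5 and 24.8 FPKM (0.37), so 2 were lower and 1 higher. The 73 genes on other chromosomes had a median of 0.10. Rpl29 and the paralogs Rpl10l and Rpl39l are among these 73, so the most extreme values do not lie on the shifted chromosomes.

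The TOP tract was looked for as a C followed by at least 4 more C or T bases, on the strand of the gene, starting within 10 bases of a RefSeq start site (GRCm38.p6). It was found for 39 of 63 ribosomal protein genes with a listed start (61.9%), against 34.4% of 27025 genes. Windows of 30 bases around the start are shown for genes with a large difference and for Rps6, with the tract in capitals. The annotated start is in the middle of each window.
Rpl10l (chr12:66284387-66284416, minus strand): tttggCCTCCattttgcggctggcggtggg
Rpl39l (chr16:10170213-10170242, plus strand): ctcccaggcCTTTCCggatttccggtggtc
Rpl27a (chr7:109519180-109519209, plus strand): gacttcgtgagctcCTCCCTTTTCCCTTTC
Rps27 (chr3:90213634-90213663, minus strand): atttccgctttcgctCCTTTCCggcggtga
Rps6 (chr4:86857353-86857382, minus strand): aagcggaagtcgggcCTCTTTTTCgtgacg
Rpl5 (chr5:107900513-107900542, plus strand): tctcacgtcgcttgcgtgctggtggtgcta

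In Rps27 and Rps6 the tract begins at the annotated first transcribed base, in Rpl10l and Rpl39l before it, and in the Rpl5 window none was found. The 39 genes with a tract had a median difference of 0.25 (median level 23.8 and 42.5 FPKM), and the 23 tested genes without one of 0.10 (44.0 and 34.8 FPKM). A match describes these letters at the annotated start only.

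Other gene features divided the list as follows. The 30 genes that host an annotated snoRNA in the gene on its strand had a median difference of 0.01, and the 52 others of 0.15. The 22 genes with under 5 exons had a median of 0.43 and the 60 others of 0.09. Genes with transcripts shorter than the median of 732 bases had a median of 0.24 and longer ones of 0.09. The quartiles of the classes overlapped in each split.

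Genes that work with the ribosomal proteins had medians close to that of all genes too. Beside the counts of these lists, 12.3% of all genes were at least 1.5-fold higher and 12.4% lower. At 2-fold the shares of all genes were 3.8% and 3.98%. The 77 mitochondrial ribosomal protein genes, whose ribosome is separate and whose coding sequences were mostly unique (median 100%), had a median difference of 0.05, with 12 at least 1.5-fold higher, 5 lower and none past 2-fold. Mrpl15 was at 99.3 and 42.2 FPKM (-0.99) and Mrpl51 at 15.9 and 27.1 FPKM (0.90). Their range of -0.99 to 0.90 was narrower than that of the cytosolic genes.

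The 56 ribosome biogenesis factors had a median of 0.13, with 2 at least 1.5-fold higher and 2 lower. Those were the small subunit processome gene Utp3 (58.4 and 85.6 FPKM, 0.77) and the H/ACA snoRNP gene Gar1 (33.3 and 48.6 FPKM, 0.74), and the large subunit assembly factor Wdr12 (37.0 and 18.4 FPKM, -0.78) and the small subunit endonuclease Nob1 (52.7 and 26.4 FPKM, -0.76). The 20 genes of RNA polymerase I and its factors, which make ribosomal RNA, had a median of -0.01. Of these, 2 were 1.5-fold higher, Polr2k (3.03 and 5.71 FPKM) and Polr2l (0.925 and 2.18 FPKM), both subunits shared with other polymerases.

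The 14 chaperones and importers of ribosomal proteins had a median of 0.00, with Heatr3, a factor for Rpl5 import, 1.5-fold lower at 53.3 and 27.7 FPKM (-0.71). The 29 translation factors and other genes with TOP mRNAs had a median of 0.01, with 4 at least 1.5-fold higher and 2 lower. The snoRNA hosts Gas5 (93.5 and 34.0 FPKM, -1.23) and Snhg1 (136 and 59.2 FPKM, -0.93) were the lower ones. Eif2s3x, an X-linked initiation factor subunit, was at 6.66 and 14.7 FPKM (1.18), and the poly(A)-binding protein gene Pabpc1 at 153 and 204 FPKM (0.64).

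**Figure D5:**
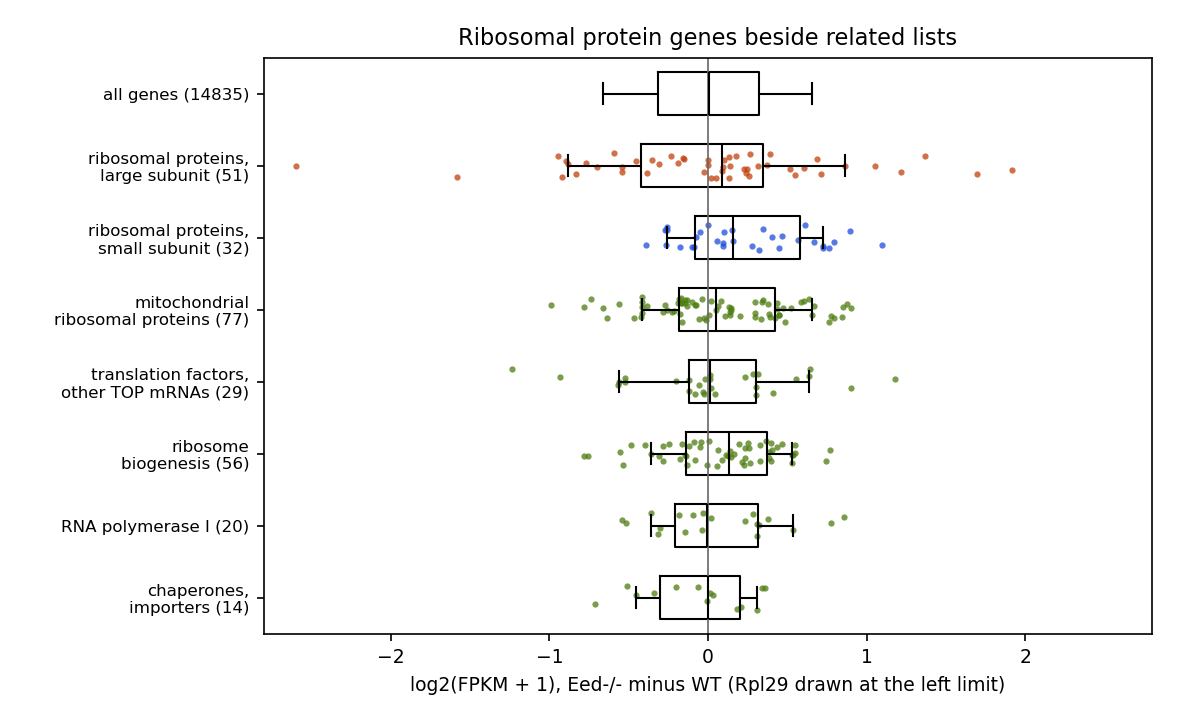
Difference in log2(FPKM + 1), the library labelled Eed-/- minus WT (x axis), for all genes and for 7 lists with their numbers of genes; boxes give the quartiles and the median, whiskers the 10th and 90th percentiles, and points are genes. All medians lie between -0.01 and 0.16, and the large subunit has the widest spread.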

How the data were processed

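RNA-seq of WT and Eed -/- mESCs was analysed, with 1 library per genotype; other assays were not analysed here. After removal of ribosomal RNA from total RNA, libraries that keep the strand were prepared and size-selected. The tables deposited give 1 FPKM value for each symbol, which the authors made by mapping reads to mm9 and running Cufflinks. The submitters' processing notes name TopHat2 2.0.11, Bowtie2 2.2.2 and Cufflinks 2.2.1, while the paper's methods give another TopHat version. The annotation, the Cufflinks options and the treatment of reads with several matches are not given in the sources used here. Multi-match treatment could change the level of any gene with copies.

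Symbols listed more than once (268, none of them ribosomal protein genes) were summed, the libraries quantile-normalized, and differences taken on the log2(FPKM + 1) scale, which understates differences of low genes. Genes whose normalized FPKM averaged at least 0.1 entered the comparison. Genes were matched by symbol or RefSeq synonym to GENCODE vM1 on NCBIM37 (83 of 84). Windows of 50 bases of 1 coding transcript per gene, with a CCDS entry where there was one, were searched in the genome on both strands, and copies were found by aligning coding sequences with minimap2 2.31. Depth was fitted to low FPKM of genes with 1 transcript of at least 1000 bases, where 80.5% (WT) and 81.4% of low values came within 0.1 of a whole number. Fragment numbers use the median annotated transcript length and are approximate. Start windows came from RefSeq (GRCm38.p6). Python 3.11.15, numpy 2.4.6, pandas 2.3.3 and scipy 1.17.1 were used, and the scripts were tested on simulated data.

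The members and lists were chosen with earlier results of these data known. Genes named are the 10 highest by mean FPKM, the 10 with the highest and the 10 with the lowest difference, the paralogs, members on chromosomes 1, 8 and X, and at most 5 in each direction of a related list; 3 genes that this rule names are not reported here but stay in the counts and medians. Genes that show the relation to unique sequence (Rps28, Rpl10a, Rps6, Rps12 and Rpl21), Rpl26, Rps13 and the -ps and Gm symbols were named after their values were seen. Scaling, pseudocount, filter and membership were varied.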

Additional observations from a re-analysis of the deposited data

How the results depend on the processing

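The levels of genes with copies can depend on how reads with several matches were assigned, which was not tested. Each genotype has 1 library, and no spread between cultures can be had. On FPKM as deposited the median difference of all ribosomal protein genes was -0.0797, of the large subunit -0.14 and of the small subunit 0.0093, with 6 genes at least 2-fold lower and 9 at least 1.5-fold higher; median-ratio scaling moved no median by 0.1 and no count by over 1.5 times. With a pseudocount of 0.1 or 0.01, 5 genes were at least 2-fold lower, and with a mean of at least 1 as the filter, 1 was. At 3-fold in place of 2-fold, 2 genes were higher and 1 lower. Means in place of medians gave -0.0799 for the large subunit and -0.32 for large minus small, which Rpl29 enters with its full value.

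Without genes that have a near-identical copy 7 remained, with a median of 0.00 for all, 0.00 for the small subunit and 0.051 for large minus small; 1 of them was Rpl41, whose copies are unknown, and without it too, as was tried after seeing the data, the 6 others gave 0.00 for each median and for large minus small. Both sets gave counts of 1 and 0 at 2-fold and 2 and 0 at 1.5-fold (higher and lower). Without genes under 20% unique coding windows, an alternative chosen after seeing the data, 26 remained, with a median of 0.00 for the small subunit and 0.13 for large minus small, and counts of 2 and 0 at 2-fold and 5 and 1 at 1.5-fold. Leaving out paralogs, repeated symbols or chromosomes 1, 8 and X, or adding -ps symbols, moved no median by 0.1 and no count by over 1.5 times. With windows of 100 bases the median of genes with no unique window was 3.61 FPKM in WT against 3.71 in the other library.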
